A study of Rattus norvegicus with 8 samples.

Results

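Exosomes are small vesicles that cells release into the blood, and the mRNAs described here encode the proteins that make, load, move and fuse such vesicles. The 40 names on the list were chosen by machinery class, from earlier results of the same data, as tetraspanins, ESCRT proteins and their partners, flotillins with neutral sphingomyelinase, Rab GTPases, SNAREs with their regulators, and annexins with LAMPs. Of these, 39 were found among the 29541 genes of the table. Vps25 was not analysed here. Because Vamp2 was put on the list by name, with its own difference between the groups in view, and the other members with results of these libraries known, the levels that follow are a description of these 8 libraries.

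RNA was sequenced from plasma exosomes of male Sprague Dawley rats, 9 to 10 weeks old when obtained, in 4 sedentary and 4 exercised libraries with the labels a to d. The exercised rats ran on a treadmill for 30 min at 20 m/min after a 5 min warm-up, on 5 days of each week over 1 month, and blood was taken within 30 min of the last run. Sedentary rats stayed in the room while the others ran. None of these rats is labelled with any other treatment or genotype, and the labels do not say whether plasma of several rats was pooled, so the spread between libraries may be partly technical. Plasma exosomes come from many cell types, and in such a bulk sample fewer vesicles of a kind and less RNA per vesicle cannot be told apart.

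Vesicles of this kind form when the membrane of a late endosome buds inward. ESCRT complexes sort cargo and cut the bud free, while tetraspanins and a lipid route that uses neutral sphingomyelinase help to shape the budding membrane. Rab GTPases carry the loaded endosome to the cell surface, where SNARE proteins on facing membranes zip together and fuse them. CD9, CD63 and CD81 are used as protein markers of exosomes, and the mRNA of a marker protein is a separate quantity from that protein.

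All members were rare. Levels are TPM values (transcripts per 1000000), in which reads are divided by gene length and every library is brought to the same total. The 10 most abundant RNAs held 98.1 to 99.2% of that total, which left 76357 to 139868 reads per sedentary library and 64776 to 138860 per exercised library for all other genes. For a gene of 2000 bases, 1 read was worth 0.0757 TPM in exercised a and 0.0228 to 0.0385 TPM in the other 7 libraries. Reads were detected for 35 of 39 members, 915 in all, and no member reached a mean of 1 TPM over all 8 libraries. Tspan8, Vps28, Rab5a and Vamp7 had 0 reads in all 8 libraries, which allows up to 3.70 per 1000000 reads outside the 10 most abundant RNAs. Of the 35 members detected, 13 had 10 reads or fewer in the whole series, and 5 had reads in every library.

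**Figure D1:**
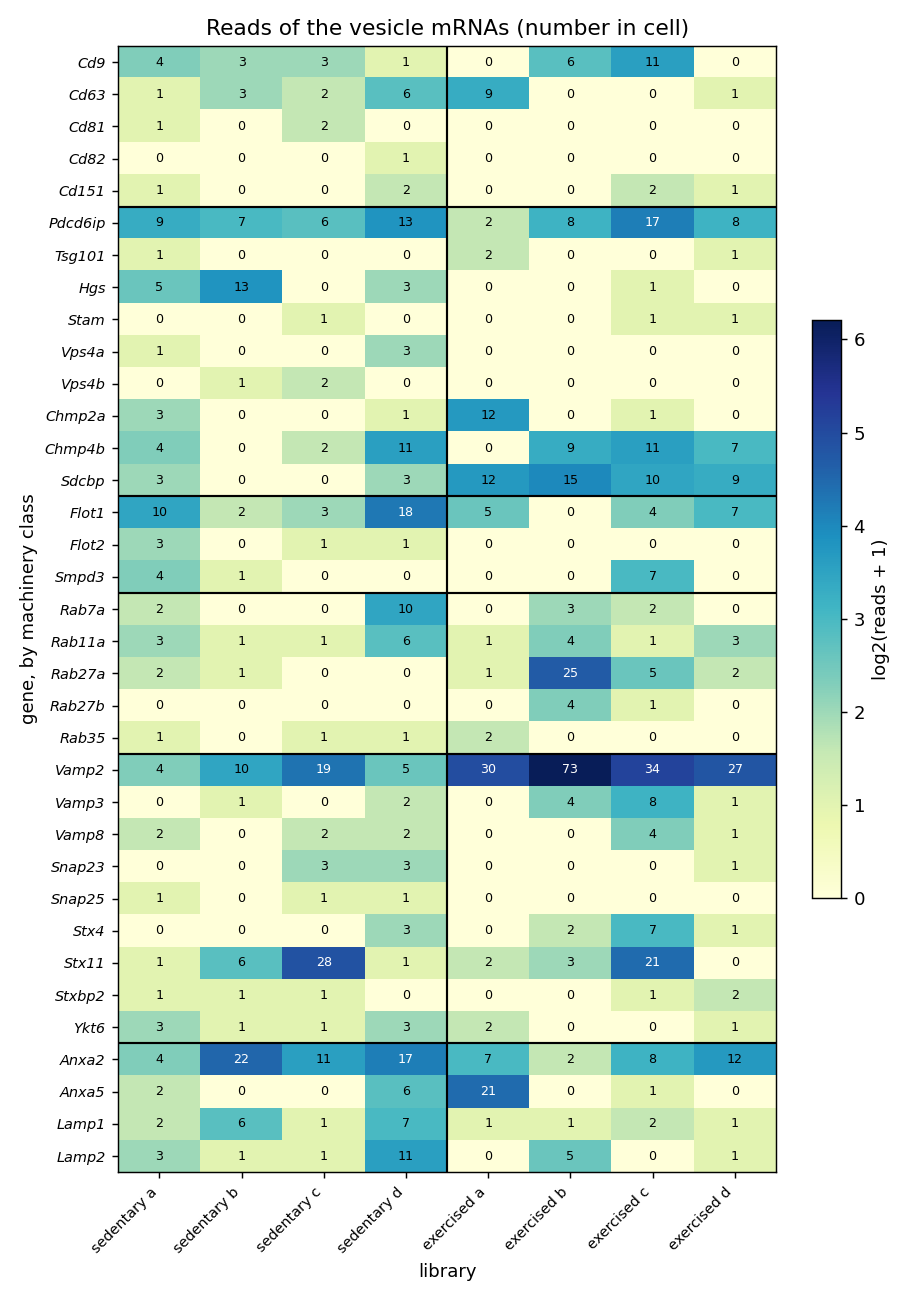
Reads of the 35 detected members (rows, grouped by machinery class between black lines) in each of the 8 libraries (columns), with the number of reads in each cell and the colour on a log2(reads + 1) scale. Vamp2 holds 202 of the 915 reads, and several other members draw most of their reads from 1 library, as Anxa5 and Chmp2a do from exercised a and Rab27a from exercised b.

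Vamp2 (ENSRNOG00000006989), or synaptobrevin 2, is the vesicle SNARE of synaptic vesicles and of regulated secretion in other cells. It was the most abundant member. Its level was 0.0639, 0.245, 0.276 and 0.0896 TPM in sedentary a to d and 1.45, 1.599, 0.797 and 0.631 TPM in exercised a to d. Each exercised library was above each sedentary one, and exercised a and b were the highest. The means were 0.169 ± 0.107 TPM (SD, n = 4) in sedentary and 1.12 ± 0.476 TPM (SD, n = 4) in exercised rats, a ratio of 6.63. It was 5.49 to 8.41 when single libraries were left out. These levels rest on 4, 10, 19 and 5 reads in the sedentary and 30, 73, 34 and 27 reads in the exercised libraries. Per 1000000 reads left after the 10 most abundant RNAs were set aside, the pooled read ratio was 4.58, and its exact 95% binomial (Clopper-Pearson) interval, which takes in counting error alone, ran from 3.20 to 6.71. The ratio of means fell to 3.85 when TPM were rescaled after leaving out those 10 RNAs, and the groups still did not overlap. On the log2(TPM + 0.1) scale the difference was 2.18 with a standard error of 0.51, beside a median of 0.28 over all genes tested.

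Sdcbp (ENSRNOG00000009683) encodes syntenin, the adaptor that joins syndecans to the ESCRT protein ALIX. Its level was 0.0503 TPM in sedentary a, 0 in b and c and 0.0564 TPM in d, against 0.608, 0.345, 0.246 and 0.221 TPM in exercised a to d. The exercised libraries all stood above the sedentary ones, and exercised a was the highest. In sedentary b and c a floor of 3 reads would be 0.0773 and 0.0457 TPM, still below every exercised library. The means were 0.0267 ± 0.0309 TPM (SD, n = 4) and 0.355 ± 0.177 TPM (SD, n = 4), a ratio of 13.3. It was 9.97 to 21.1 when single libraries were left out, the highest without sedentary d. Sedentary libraries held 3, 0, 0 and 3 reads and exercised libraries 12, 15, 10 and 9. The pooled read ratio was 8.14, with an exact 95% interval for counting error of 3.47 to 23.3. In RefSeq (GRCr8) the gene overlaps a pseudogene, LOC134478928, and a long non-coding RNA, LOC134478929, and no source used here says how reads were divided among them.

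**Figure D2:**
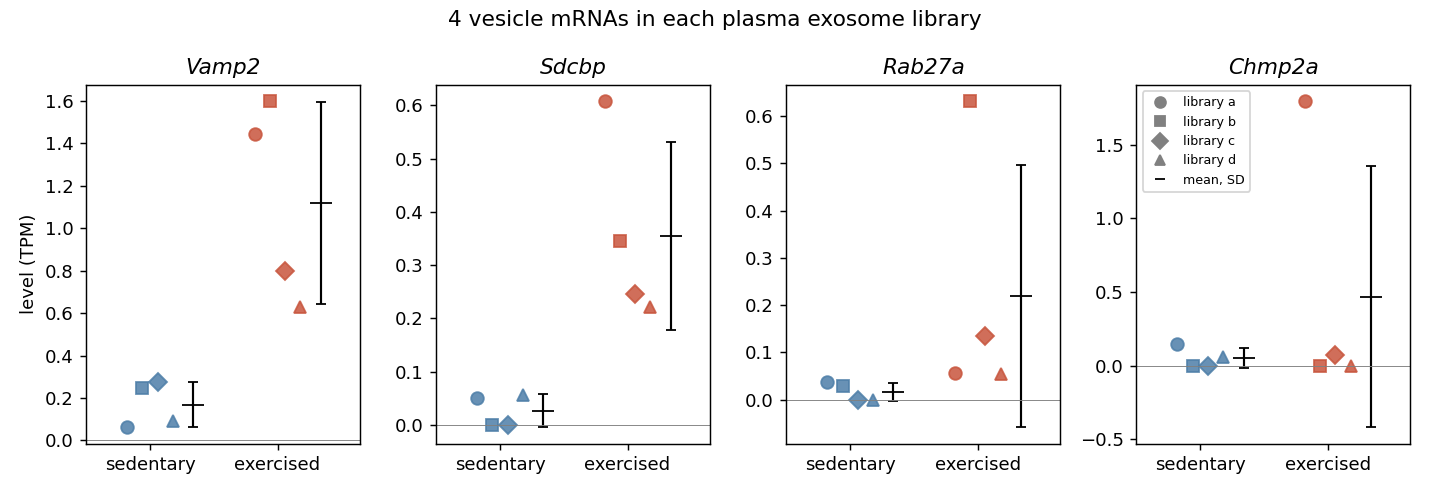
Level in TPM (vertical axes, linear and separate for each gene) of Vamp2, Sdcbp, Rab27a and Chmp2a in the sedentary and exercised libraries. Each symbol is a library, and the black bar is the mean with its SD (n = 4). Vamp2 and Sdcbp are higher in each exercised library, while the exercised means of Rab27a and Chmp2a are set by exercised b at 0.632 TPM and exercised a at 1.79 TPM.

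The 250 bases before the Vamp2 start are shown because it had the most reads of the list and its groups did not overlap. They come from RefSeq, build GRCr8, chr10:54292539-54292788, plus strand, and capitals mark matches to GGGCGG (a GC box) or TGACG (a cyclic AMP response element half-site) on either strand, as CCGCCC and CGTCA on the other.
Vamp2: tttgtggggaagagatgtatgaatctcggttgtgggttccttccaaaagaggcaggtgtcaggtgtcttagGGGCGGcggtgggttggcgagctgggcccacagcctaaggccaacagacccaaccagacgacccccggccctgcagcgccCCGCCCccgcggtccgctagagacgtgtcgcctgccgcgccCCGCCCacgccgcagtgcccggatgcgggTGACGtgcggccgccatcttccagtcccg
The window held 3 GC box matches and 1 half-site match, which do not overlap each other, and no match to the E-box CACGTG. Promoters were found for 32 of the members. A GC box match was present in 20 of these 32 (62.5%) and in 40.3% of 18999 protein-coding promoters of the same length. A half-site match was present in 12 of the 32 (37.5%) and in 21.1% of those promoters. An E-box match was present in 5 of the 32 (15.6%) and in 6.38% of those promoters. These matches describe the letters of the window, and nothing was measured on binding to them.

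Across all genes whose mean reached 0.1 TPM, limma called 0 of 3069 between the groups at an adjusted p (Benjamini-Hochberg) under 0.05, a background of 0%. Only 9 members passed that filter, and 0 of them were called, with a smallest adjusted p of 0.356 by limma. Sdcbp, Rab27a, Chmp2a, Anxa5 and Pdcd6ip reached 0.1 TPM in the exercised mean alone. No tested member reached it in the sedentary mean alone. Hgs, at a mean of 0.104 TPM in sedentary and 0.00538 TPM in exercised rats, was left out by the filter. The counts by direction depend in part on this filter. At an unadjusted p under 0.05, 2 members, Vamp2 and Sdcbp, were higher and 0 were lower, where 4.07% of all genes tested were higher and 2.54% lower. Fitted on the recovered reads with voom, 0 members were called, beside 8 of all 3059 genes (0.262%). At an unadjusted p under 0.05 by voom, 3 members were higher and 0 lower, beside 3.17% and 4.77% of all genes. Since the list was drawn with these results known, such counts describe it and nothing further is read from them. Among the 17901 genes with any read, the libraries of the groups did not overlap for 1.06% in the higher and 0.715% in the lower direction. Of the 35 detected members, 3 were of the first kind, namely Vamp2, Sdcbp and Rab27a, and 0 of the second. Rab27a left this count after that rescaling. Over the 35 detected members the median log2 difference was 0.04, beside 0.03 over all detected genes, and 60.0% of the members had the higher mean in exercised rats, beside 57.0% of all detected genes. Members just inside the filter were Pdcd6ip at a mean of 0.101 TPM and Rab27a at 0.118 TPM, and just outside it were Cd9 at 0.0951 TPM and Stx11 at 0.0866 TPM.

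Tetraspanins, membrane proteins that cluster cargo into domains, gave groups that overlapped. Their summed level was 0.169, 0.270, 0.162 and 0.355 TPM in sedentary a to d and 1.03, 0.170, 0.415 and 0.0961 TPM in exercised a to d. Exercised a and c lay above the sedentary range, d lay below it and b within it. The ratio of means was 1.79, and it was 0.9498 without exercised a and 1.17 after the rescaling that leaves out the 10 most abundant RNAs. Pooled by reads it was 1.06. Cd63, which marks late endosomes and lysosomes, was at 0.0379, 0.175, 0.0688 and 0.255 TPM in sedentary and 1.03, 0, 0 and 0.0554 TPM in exercised rats. Exercised a held 9 of its 10 exercised reads, and the ratio of means of 2.02 became 0.138 without that library. Pooled by reads, which gives the shallow library less weight, the ratio was 0.885 with an exact 95% interval of 0.343 to 2.24. In RefSeq, Cd63 overlaps Rdh5, so reads of the pair may be shared if strand was not used in counting. Cd9, a tetraspanin of the plasma membrane and of platelets, was at 0.0827, 0.0952, 0.0563 and 0.0232 TPM in sedentary rats. In exercised rats it was 0 in a and d, 0.170 TPM in b and 0.333 TPM in c, so the exercised libraries lay on both sides of the sedentary ones. The ratio of means of 1.96 became 0.881 without exercised c. Cd81 had 3 reads and Cd82 had 1, all of them sedentary, and Cd151 had 3 in each group.

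The ESCRT class was led by Sdcbp, Chmp4b, Chmp2a and Pdcd6ip. Its sum was 0.576, 0.410, 0.173 and 0.946 TPM in sedentary a to d and 2.54, 1.02, 1.34 and 0.844 TPM in exercised a to d. Exercised d lay below sedentary d, and the other exercised libraries lay above the sedentary range. The ratio of means was 2.73 with Sdcbp and 2.16 without it, and by pooled reads it was 1.47 with Sdcbp, while 81 exercised and 86 sedentary reads were left without it. Chmp4b, the ESCRT-III subunit that forms the constricting filament, was at 0.188, 0, 0.0855 and 0.581 TPM in sedentary and 0, 0.581, 0.759 and 0.482 TPM in exercised rats. Each group thus had a library at 0 and a library near 0.58 TPM. Its ratio was 2.13, or 4.99 without sedentary d, and its pooled read ratio of 1.69 had an interval of 0.887 to 3.30. Chmp2a, another ESCRT-III subunit that recruits the VPS4 ATPase, was at 0.149, 0, 0 and 0.0555 TPM in sedentary and 1.79, 0, 0.0726 and 0 TPM in exercised rats. The value in exercised a came from 12 of the 13 exercised reads, and the ratio of 9.14 became 0.474 without it and 25.2 without sedentary a. The gene overlaps Trim28 and Ube2m in RefSeq. Pdcd6ip, which encodes ALIX, had 70 reads spread over all 8 libraries and a pooled read ratio of 1.06 with an interval of 0.646 to 1.75.

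The other ESCRT members were near the limit of detection, except Hgs in the sedentary libraries. Hgs, the ESCRT-0 subunit that binds ubiquitinated cargo, had 5, 13, 0 and 3 reads in sedentary and 0, 0, 1 and 0 in exercised libraries. Its pooled read ratio was 0.0506 with an interval of 0.00122 to 0.314, sedentary b held 59.1% of its reads, and the groups overlapped through sedentary c. Its partner Stam had 3 reads in all, and Tsg101, the ESCRT-I subunit used as an exosome marker, had 4. The ATPases Vps4a and Vps4b, which take ESCRT-III apart, had 4 and 3 reads, all in sedentary libraries.

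Flotillins, scaffold proteins of membrane rafts, and the sphingomyelinase gave sums of 0.237, 0.0663, 0.0547 and 0.347 TPM in sedentary and 0.251, 0, 0.200 and 0.170 TPM in exercised rats. The range of each group covered most of the other. Exercised over sedentary, the means gave a ratio of 0.880. Flot1 was at 0.166, 0.0510, 0.0452 and 0.335 TPM in sedentary and 0.251, 0, 0.0974 and 0.170 TPM in exercised libraries. Its ratio of 0.867 turned to 1.48 without sedentary d and to 1.16 without exercised b. The pooled read ratio of Flot1 was 0.515 with an interval of 0.265 to 0.963. Flot2 had 5 reads, all sedentary. Smpd3, the neutral sphingomyelinase of ceramide-dependent budding, was at 0.0398, 0.0153, 0 and 0 TPM in sedentary rats and was 0 in each exercised library except c, at 0.102 TPM from 7 reads.

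Rab GTPases summed to 0.131, 0.0433, 0.0256 and 0.345 TPM in sedentary and 0.196, 1.25, 0.342 and 0.0968 TPM in exercised rats. Exercised b alone lay above sedentary d. Between the means the ratio was 3.45, and it was 1.55 without exercised b, 7.06 without sedentary d and 2.29 after the rescaling. Rab27a docks secretory endosomes at the plasma membrane. It was at 0.0369, 0.0283, 0 and 0 TPM in sedentary and 0.0556, 0.632, 0.135 and 0.0539 TPM in exercised rats. The gap between the groups was a matter of single reads, since 2 reads gave the 0.0369 TPM of sedentary a and 1 read the 0.0556 TPM of the shallower exercised a. In sedentary d, at 0, a floor of 3 reads would be 0.0620 TPM, above exercised a and d. The ratio of means of Rab27a was 13.4. It was 23.2 without sedentary a and 5.01 without exercised b, which held 25 of 33 exercised reads. The pooled read ratio was 11.7 with an interval of 3.67 to 59.5. Rab27b, its close relative, had no sedentary read and was at 0.465 TPM in exercised b and 0.124 TPM in c. These are 4 and 1 reads as recovered. Exercised a and d were at 0 like the sedentary libraries, so the groups overlapped. The 3 reads that a sedentary library could hold unseen would be 0.231 to 0.390 TPM. The recovered reads imply a short gene, of 592 bases. True reads may be a multiple of them, which would lower that floor. Rab7a, Rab11a and Rab35, which act in late endosomes, recycling endosomes and the plasma membrane, had 17, 20 and 5 reads, and the read ratio intervals of all 3 included 1.

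**Figure D3:**
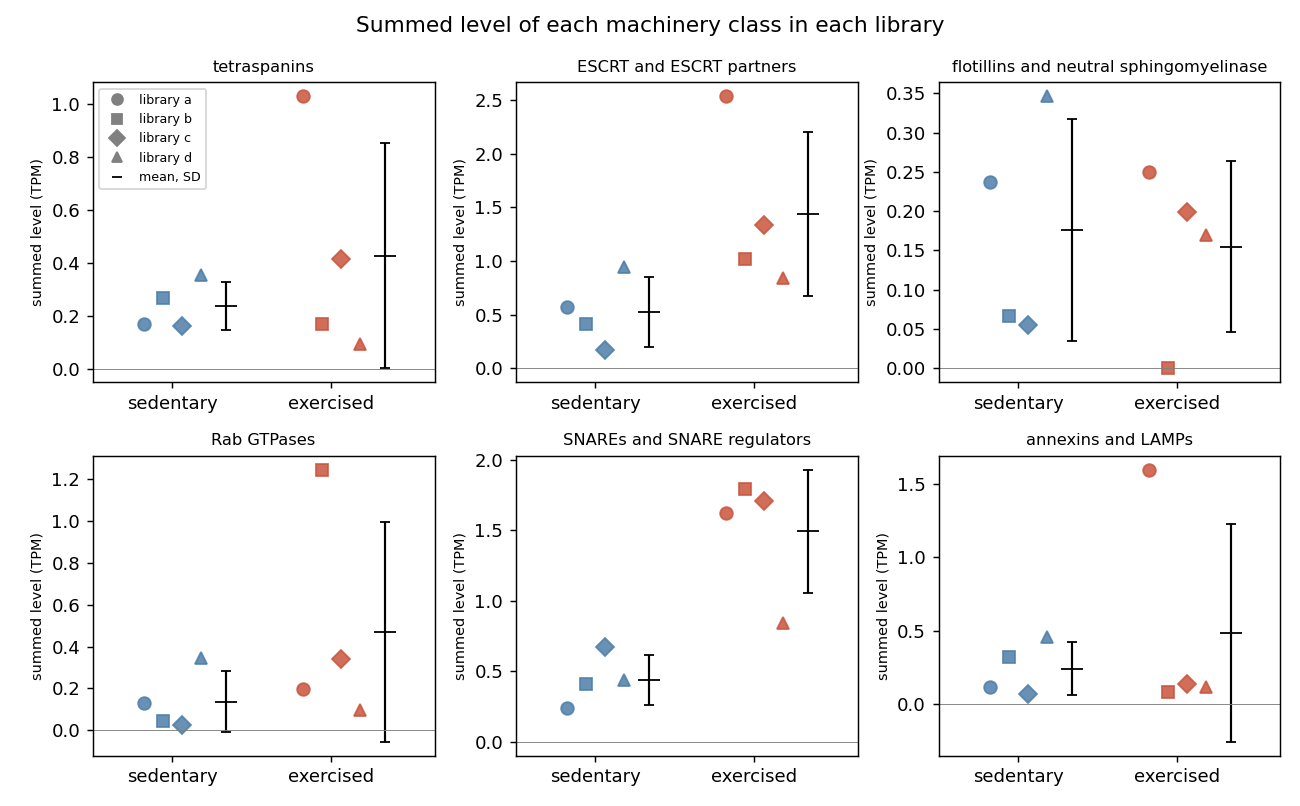
Summed TPM of the members of each machinery class (vertical axes, linear and separate for each class) in the sedentary and exercised libraries. Symbols are libraries and black bars the mean with its SD (n = 4). SNAREs and their regulators lie at 0.843 to 1.79 TPM in exercised and 0.243 to 0.673 TPM in sedentary rats, and the other 5 classes overlap. After rescaling without the 10 most abundant RNAs, SNAREs overlap as well.

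SNAREs and their regulators were the only class of the 6 whose libraries did not overlap in TPM as deposited. Their sum was 0.243, 0.415, 0.673 and 0.439 TPM in sedentary a to d and 1.62, 1.79, 1.71 and 0.843 TPM in exercised a to d. The lowest exercised library, d, was above sedentary c, the highest of its group. After the rescaling that leaves out the 10 most abundant RNAs the groups of this class overlapped too, with 0.906 TPM in the lowest exercised and 1.26 TPM in the highest sedentary library. The ratio of means was 3.37, 1.96 after the rescaling and 2.25 by pooled reads. Without Vamp2 it was 1.36, or 0.783 after the rescaling and 0.953 by pooled reads, and the 8 other detected members summed to 0.169 to 0.397 TPM in sedentary and 0.176 to 0.912 TPM in exercised rats, which overlapped. Stx11, a syntaxin of cytotoxic granule and platelet secretion, was at 0.00891, 0.0821, 0.227 and 0.00999 TPM in sedentary and 0.0538, 0.0367, 0.274 and 0 TPM in exercised rats. Library c was the highest in both groups, with 28 and 21 reads. The ratio of 1.11 became 2.71 without sedentary c and 0.368 without exercised c, and 0.523 after the rescaling. Vamp3, the vesicle SNARE of recycling endosomes, had 3 sedentary and 13 exercised reads, a pooled ratio of 4.60 with an interval of 1.26 to 25.2, and no read in exercised a. Stx4, a plasma membrane syntaxin, had 3 and 10 reads, with an interval of 0.912 to 20.02. Vamp8, the main vesicle SNARE of platelet granules, had 6 and 5 reads. Snap25, the neuronal partner of Vamp2, had 3 sedentary reads and 0 exercised reads, which allows up to 7.63 per 1000000 exercised reads outside the 10 most abundant RNAs. Its widely expressed relative Snap23 had 6 and 1 reads. Stxbp2, a regulator of granule fusion, had 3 in each group, and Ykt6, a SNARE of several membrane routes, had 8 and 3.

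Annexins bind membranes in the presence of calcium, and LAMPs are the main glycoproteins of the lysosomal membrane. They summed to 0.118, 0.320, 0.0681 and 0.457 TPM in sedentary and 1.596, 0.0826, 0.137 and 0.117 TPM in exercised rats. Exercised a stood apart from all other libraries, and the ratio of means of 2.01 became 0.465 without it. Pooled by reads the class lay the other way, at 0.701 with an exact 95% interval for counting error that ended at 0.976. Anxa5, known for its binding to exposed phosphatidylserine, was at 0.0457, 0, 0 and 0.154 TPM in sedentary and 1.45, 0, 0.0335 and 0 TPM in exercised libraries. Exercised a held 21 of its 22 exercised reads, and its ratio of 7.43 became 0.224 without it and 24.3 without sedentary d. Anxa2, which links membranes to actin, was at 0.0188, 0.159, 0.0470 and 0.0897 TPM in sedentary and 0.0994, 0.0129, 0.0552 and 0.0826 TPM in exercised rats. The groups overlapped over most of their range, and the ratio of 0.795 became 1.21 without sedentary b. It had reads in all 8 libraries, and its pooled read ratio was 0.570 with an interval of 0.350 to 0.912. Lamp1 had 16 sedentary and 5 exercised reads, a pooled ratio of 0.332 with an interval of 0.0951 to 0.948, and Lamp2 had 16 and 6, with an interval of 0.128 to 1.07.

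**Figure D4:**
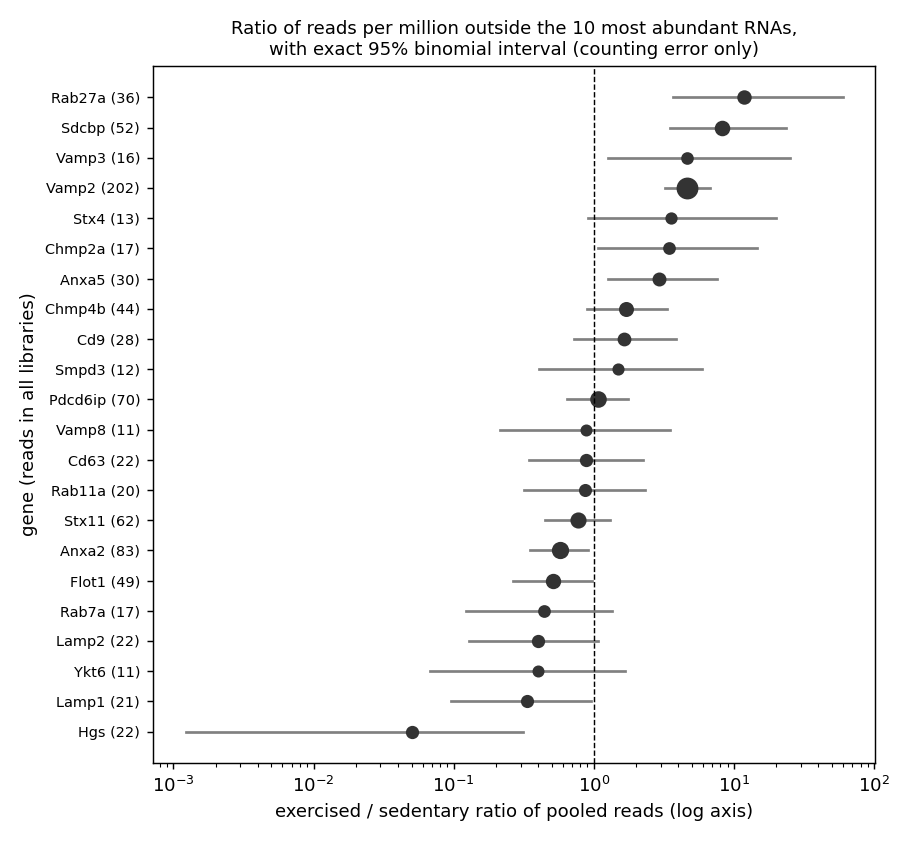
Ratio of exercised to sedentary reads, each as a share of the reads not taken by the 10 most abundant RNAs (horizontal log axis) for the 22 members with at least 10 reads and reads in both groups, with the total reads in brackets. Points are larger for more reads, bars are exact 95% binomial intervals that cover counting error and not the spread between libraries, and the dashed line is 1. The bars of 6 members lie above 1 and those of 4 below it. The share of all genes with such bars was not computed, so nothing is read from these counts.

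These intervals treat the libraries of a group as 1 pool. Vamp3, Chmp2a, Anxa5 and Rab27a lie above 1 there with Vamp2 and Sdcbp, and Hgs, Lamp1, Flot1 and Anxa2 lie below it. Of these 10, only Vamp2, Sdcbp and Rab27a also had groups that did not overlap as deposited, and those of Rab27a overlapped after the rescaling. Of the 22 members with more than 10 reads, 7 drew more than 50% of their reads from 1 library.

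Of 128 other genes of the same machinery classes, 125 were in the table, 114 had reads and 16 were tested. None was called by limma at an adjusted p under 0.05, 1 was higher and 1 was lower at an unadjusted p under 0.05, and their median log2 difference was 0.18 beside 0.28 over all genes tested. Anxa1, an annexin that is abundant in neutrophils, was the higher one. It was at 0, 0, 0.156 and 0 TPM in sedentary and 0.259, 0.274, 0.209 and 0.251 TPM in exercised rats, from 6 and 21 reads, with a log2 difference of 1.46 and an adjusted p of 0.437 by limma. The groups did not overlap as deposited but did after the same rescaling. Rab1a, which acts between the endoplasmic reticulum and the Golgi, was the lower one. It was at 0.0722, 0.296, 0.131 and 0.971 TPM in sedentary rats and at 0 in each exercised library except d, at 0.176 TPM, with a log2 difference of -1.48 and an adjusted p of 0.746 by limma. Sedentary d held 36 of its 53 sedentary reads. Rab14, which acts between endosomes and the Golgi, was under the filter and is named after its values were seen. It had 5, 10, 8 and 5 reads in sedentary a to d and 0 in each exercised library. Against a floor of 3 reads over the exercised group, its exercised level was at most 0.114 of the sedentary one, and Stxbp5, which binds syntaxins, was the other gene of these lists with all sedentary libraries higher, at 8 reads.

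Of 9 lists of markers of blood and tissue cells, only that of platelets and megakaryocytes had groups whose summed levels did not overlap. Summed platelet and megakaryocyte markers, 12 of 13 with reads and Gp1bb at 0, lay at 0.925 to 3.37 TPM in sedentary and 6.92 to 15.3 TPM in exercised rats. A few genes carried that sum, Pf4 with 12.1 of 13.1 TPM in exercised a, Tubb1 with 3.03 of 7.08 TPM in b and Clec1b with 6.51 of 15.3 TPM in c. Of the 12 genes, 10 had the higher mean in exercised rats and 2, Treml1 and Itga2b, the lower. Pf4 alone had groups that did not overlap. As recovered, 3 of the genes had 3 reads or fewer, among them Ppbp with 1 read. That read implies a gene of only 88 bases, and true reads of Ppbp may be a multiple of it. Neutrophil markers (12 of 13 with reads, Elane at 0) lay at 0.0563 to 6.59 TPM and 0 to 83.2 TPM. Of these, 11 had the higher mean in exercised rats and 1 the lower, and 4 had 3 reads or fewer as recovered. None had groups that did not overlap. Neutrophil sums were 0 and 0.215 TPM in exercised a and b and 56.9 and 83.2 TPM in c and d. RatNP-3b gave 49.6 and 47.9 TPM of the sums in c and d. Endothelial markers lay at 0.214 to 0.681 TPM and 0.236 to 1.38 TPM, from 243 and 173 reads. All 7 had the higher mean in exercised rats in TPM as deposited. After the rescaling without the 10 most abundant RNAs, Tek alone kept a ratio above 1, at 1.85. The others then lay from 0.506 (Cdh5) to 0.969 (Tie1). Vwf, with 192 sedentary and 130 exercised reads, had a pooled read ratio of 0.719 with an interval of 0.571 to 0.903. Liver markers (12 of 12 in the table with reads) lay at 14.8 to 89.8 TPM and 0.510 to 55.9 TPM. Of these, 1 had the higher mean in exercised rats and 11 the lower, and Apoa1 and Fgg were lower in each exercised library. Neuronal markers, named here because Vamp2 and Snap25 are known from synapses, had reads for 7 of 12 genes and lay at 0.122 to 0.231 TPM and 0.0390 to 0.393 TPM, with Syt1, Stmn2, Nefl, Elavl4 and Camk2a at 0. Of the 7 neuronal genes, 4 had the higher mean in exercised rats and 3 the lower, and Rbfox3 was lower in each exercised library. Rbfox3 had 3, 1, 4 and 3 sedentary and 0, 0, 1 and 0 exercised reads. Its gap between the groups was a matter of single reads, with 0.0268 TPM in sedentary b and 0.0256 TPM in exercised c from 1 read each. The part of any of these cells in the levels of Vamp2, Sdcbp and the other members was not tested.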

How the data were processed

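The authors deposited 1 table of TPM for 29541 genes and 8 libraries. Rat build mRatBN7.2 is credited to the submitters' processing notes. Aligner, counter and any removal of PCR duplicates: not given in the sources used here. RNA was isolated with an exosome RNA kit and libraries were made with a stranded total RNA kit from 1 ng. The members and gene lists were chosen with earlier results of these data known.

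Since each nonzero TPM could be written as a whole number of reads (71860 of 71860 values at a tolerance of 1e-06), reads were taken as the smallest whole numbers that give a gene's TPM, and true reads may be a multiple of them. Libraries held 10020804 to 31357153 reads. The group difference was fitted with limma 3.58.1 in R 4.3.3 (group only, trend) on log2(TPM + 0.1) for genes whose mean reached 0.1 TPM, a scale that understates changes of rare genes, and p-values were adjusted by Benjamini-Hochberg over those genes. The step was tested on simulated data. Binomial intervals (Clopper-Pearson, 95%) and the floor of 3 reads cover counting error only.

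Values were given per library for Vamp2, the 2 members of each class with the highest mean, members whose groups did not overlap and members at an unadjusted p under 0.05, and for up to 4 other genes of the classes in each direction. Alternatives were a pseudocount or filter of 1 TPM, no filter, TPM scaled without the 10 most abundant RNAs, voom on reads, a replicate block and leaving out libraries. Class sums without Vamp2 or Sdcbp were added after the data had been seen.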

Additional observations from a re-analysis of the deposited data

Results flagged for a closer look

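Among the 6 class sums and the 13 members with values for each library, a library stood far from the other 3 in 6 of 37 groups. In groups this small, chance alone gives this for about 1 in 20 when values are continuous, which low read counts are not. Exercised a was the library in 4 of them, with a summed annexin and LAMP level of 1.596 TPM, Anxa5 at 1.45 TPM, Chmp2a at 1.79 TPM and Cd63 at 1.03 TPM. The annexin and LAMP sum includes Anxa5, so these are not separate cases. Exercised a was also the library with the fewest reads, 64776 outside the 10 most abundant RNAs, and whether depth has a part in these values was not tested. Exercised b stood apart for Rab27a, at 0.632 TPM. Exercised c stood apart for Smpd3, at 0.102 TPM, the one exercised library with a read of that gene, so this flag was bound to follow.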

How the results depend on the processing

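No member and no other gene of the classes was called at an adjusted p under 0.05 under any alternative, although voom on the recovered reads called 8 of 3059 genes. The members higher at an unadjusted p under 0.05 were 2 as reported and 2 to 3 under the alternatives, and 0 were lower under each. With a filter of 1 TPM no member was left to count. Over all genes tested the median log2 difference was 0.28 as deposited and -0.15 with TPM scaled without the 10 most abundant RNAs. Libraries with the same letter were not similar (correlation of deviations -0.158 to -0.0509 over 4 pairs), and with the letters as a replicate block the count of members higher was again 2 and that of genes called was 0.

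Leaving out 1 library at a time gave class ratios of 0.9498 to 2.25 for tetraspanins, 2.03 to 3.71 for ESCRT and partners, 0.699 to 1.30 for flotillins and sphingomyelinase, 1.55 to 7.06 for Rab GTPases, 2.93 to 4.08 for SNAREs and 0.465 to 2.86 for annexins and LAMPs. Without sedentary b and exercised a together, tetraspanins were at 0.992 and annexins and LAMPs at 0.523. With TPM scaled without the 10 most abundant RNAs, the ratios were 1.17 for tetraspanins, 1.87 for ESCRT and partners, 0.618 for flotillins and sphingomyelinase, 2.29 for Rab GTPases, 1.96 for SNAREs and 1.46 for annexins and LAMPs. The SNARE ratio was 1.36 without Vamp2. Leaving aside the block and the absence of a filter, which cannot move a log2 difference here, 94 values were recomputed for 10 members. Of these, 88 stayed within 1 SD and 85 kept their sign, with changes of sign for Cd63, Flot1 and Stx11. Smpd3, Rab27b and Anxa2 passed the filter under none of these settings and have no such value. Vamp2 ranged from 0.83 (pseudocount 1) to 2.40 and Sdcbp from 0.39 (pseudocount 1) to 3.34 (voom). Of 35 detected members, 13 had 10 reads or fewer. The cause of these shifts was not tested.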
